A study of Homo sapiens with 20 samples.

Results

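The 10 genes studied encode alpha- and beta-tubulin, the proteins that pair and polymerise into microtubules, and their mRNAs were followed through RNA granules and exosomes of HEK293 cells. The genes were selected on their values in these libraries and are found by symbol in the deposited files: TUBA1A, TUBA1B, TUBA1C and TUBA4A encode alpha-tubulins, and TUBB, TUBB2A, TUBB2B, TUBB3, TUBB4B and TUBB6 encode beta-tubulins. They are 10 of 62266 named genes, and the files list 87 transcripts for them among 251955 named transcripts. Because the choice may have used any of their values in the 4 groups, the differences of these 10 genes are given as descriptions with their standard errors, without a p-value, and the counts of calls are not evidence about them.

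Alpha- and beta-tubulin form heterodimers that add to and leave the ends of microtubules, which carry vesicles and RNA granules through the cytoplasm and build the mitotic spindle. Cells hold the amount of soluble tubulin in check through the stability of its mRNAs: when free dimers are in excess, the factor TTC5 recognises the first residues of a tubulin chain as it leaves the ribosome, and with SCAPER and CNOT11 it brings the CCR4-NOT deadenylase to the mRNA being translated. New chains are folded by prefoldin and the CCT chaperonin and are paired by the tubulin cofactors. The isotypes differ in where they are made in the body. TUBB3 and TUBB2B are best known from neurons, TUBA4A from platelets and neurons, and TUBA1B, TUBA1C, TUBB and TUBB4B from most dividing cells.

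Total RNA was sequenced from exosomes, small vesicles that cells release, and from granule cores, assemblies of RNA and protein in the cytoplasm that have no membrane. HEK293 is a human embryonic kidney line. The sample titles abbreviate the granules as SG. The 20 libraries form 4 groups of 5, which the design text calls biological replicates: granules of HD-induced cells (HD granules), granules of control cells (control granules), exosomes of HD-induced cells (HD exosomes) and exosomes of control cells (control exosomes). HD stands for Huntington's disease, the labels used here do not say by what means it was induced, and all 4 groups come from this single line. The p-values below measure the spread between these libraries.

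Depth, as the sum of estimated reads in units of 1000000, was 27.0 to 35.8 in HD granules, and 17.4 to 38.4 in control granules. The HD exosomes differed widely, with 1074 reads in all in replicate 4, and 14.4, 12.1, 4.25 and 1.98 in those units in replicates 2, 1, 5 and 3, against 8.99 to 15.6 in control exosomes. A set of 3 libraries stands apart, and the results that rest on them are given with and without them. HD exosomes 4 is almost empty and held 2 tubulin reads. In HD exosomes 2, 13.4% of the reads fell on named genes, against 40.8% to 75.1% in the control libraries of both kinds. HD granules 3 had a summed tubulin level of 1054 TPM, against 84.1 to 152 TPM in the other HD granules. Of 5 genes known from the HEK293 line, LIN28B was detected in all 20 libraries and SALL2 in all but HD exosomes 4, where it was listed at 0. The kidney lineage genes PAX2 and LHX1 and the neurofilament gene NEFM did not exceed 0.575, 0.679 and 0.112 TPM in any library.

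The coding sequences are close among TUBA1A, TUBA1B and TUBA1C and between TUBB2A and TUBB2B, which bears on how well their reads can be told apart. The first 30 coding bases are shown because their first 4 codons, in capitals, encode the residues by which tubulin mRNAs are recognised during autoregulation. They were read from transcripts of GENCODE release 29 (build GRCh38).
TUBA1A: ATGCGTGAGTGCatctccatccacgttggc
TUBA1B: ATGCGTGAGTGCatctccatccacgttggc
TUBA1C: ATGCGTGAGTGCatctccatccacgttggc
TUBA4A: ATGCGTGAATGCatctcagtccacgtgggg
TUBB: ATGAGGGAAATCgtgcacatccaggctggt
TUBB2A: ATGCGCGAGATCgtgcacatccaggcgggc
TUBB2B: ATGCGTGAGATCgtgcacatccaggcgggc
TUBB3: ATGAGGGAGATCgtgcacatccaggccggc
TUBB4B: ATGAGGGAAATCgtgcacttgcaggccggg
TUBB6: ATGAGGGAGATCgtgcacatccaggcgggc

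All 3 of TUBA1A, TUBA1B and TUBA1C share these 30 bases. Over the whole coding sequence, TUBA1A and TUBA1B were 97.2% identical, and TUBB2A and TUBB2B 98.1%. TUBA4A was the most distant alpha gene, at 84.4% to 85.7% identity with the other alpha genes, and pairs of beta genes ranged from 81.0% to 98.1%. The close pairs are also neighbours in the genome. By the RefSeq annotation of GRCh38.p14, TUBA1B (49127782 to 49131395), TUBA1A (49184795 to 49189080) and TUBA1C (49227926 to 49274600) lie on chromosome 12, and TUBB2A (3153666 to 3157544) and TUBB2B (3224277 to 3227653) on chromosome 6. TUBB (30720352 to 30725422) lies elsewhere on chromosome 6, TUBA4A on chromosome 2, TUBB4B on chromosome 9, TUBB3 on chromosome 16 and TUBB6 on chromosome 18. Of the 31-base words of the main mRNA, 27.8% occurred in no other gene for TUBA1B, 30.0% for TUBB2A, 46.4% for TUBB2B and 48.4% for TUBA1A, whereas the share was 88.1% for TUBA4A and 93.9% for TUBB6. Only 9.37% of the words of TUBB3 were its own, since 90.6% also occur in a gene that is no member. Values of TUBA1A against TUBA1B and of TUBB2A against TUBB2B are therefore uncertain as to which copy the reads came from. Those of TUBB3 are uncertain as to which annotated gene the reads belong to. The words were taken from GENCODE release 29, where some transcripts differ from those quantified: TUBA1A-202 has 1915 bases there and 1672 in the deposited values.

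TUBA1B was the most abundant tubulin mRNA in all 4 groups, by the median of TPM (the deposited level, corrected for transcript length and depth), and TUBB3 and TUBA4A were the least abundant ones in granules. In control granules the medians were 54.5 TPM for TUBA1B, 39.8 for TUBB, 26.0 for TUBA1C, 16.2 for TUBB4B, 6.46 for TUBA1A, 3.19 for TUBB6, 2.72 for TUBB2B, 2.42 for TUBB2A, 0.450 for TUBB3 and 0.264 for TUBA4A. In that order, the ranges of neighbours overlapped except between TUBB4B and TUBA1A and between TUBB2A and TUBB3. In control exosomes the medians were 541 TPM for TUBA1B, 163 for TUBA1C, 162 for TUBB, 69.5 for TUBB4B, 28.1 for TUBA1A, 14.4 for TUBB2A, 13.6 for TUBA4A, 10.6 for TUBB2B, 9.94 for TUBB6 and 3.30 for TUBB3. There the ranges overlapped between TUBA1C and TUBB and among TUBB2A, TUBA4A, TUBB2B and TUBB6, and the other neighbours were separate. TUBA4A thus held the lowest place of the 10 in control granules and the 7th in control exosomes.

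**Figure D1:**
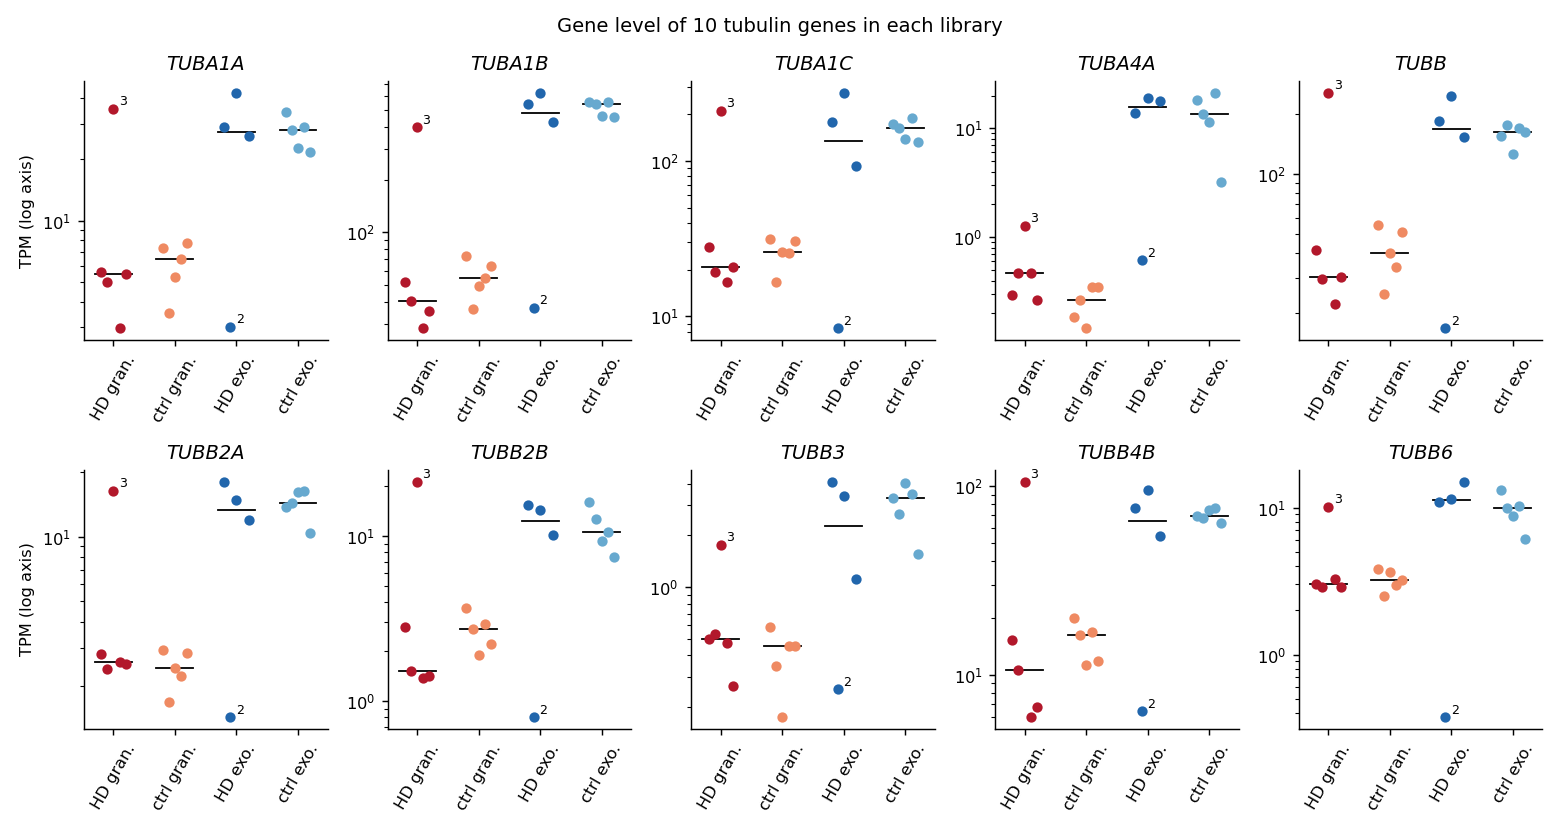
Gene level of the 10 tubulin genes in each library, as summed TPM on log axes, with a horizontal line at the median of each group. HD granules 3 and HD exosomes 2 are numbered, and HD exosomes 4 is left out because it held 2 tubulin reads. TUBA1B lies at 36.3 to 73.6 TPM in control granules and at 453 to 556 TPM in control exosomes.

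The make-up of the tubulin pool differed between the 2 compartments. TUBA1B took 36.1% ± 1.20 of the summed TPM of the 10 genes in control granules and 52.5% ± 0.61 in control exosomes (SD, n = 5 each). TUBB took 26.5% ± 2.85 in control granules and 16.1% ± 1.83 in control exosomes. The summed alpha level was 1.18 to 1.46 times the summed beta level in control granules, and 2.43 to 2.88 times in control exosomes, so these ranges did not overlap. In HD cells the ratio was 1.30 to 1.57 in granules and 1.89 to 2.51 in the 4 exosome libraries other than replicate 4.

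All 10 tubulin genes were lower in control granules than in control exosomes, with no overlap in CPM (scaled counts, corrected for depth only) between the 5 libraries of each group, which was also so for 25.4% of all tested genes in this direction. The comparison addresses which RNAs each compartment carries in control cells. Since the values are shares of a library of bulk RNA, fewer granules, vesicles or cells and less RNA in each cannot be told apart. In the edgeR quasi-likelihood fit over all genes, 10 of 10 were called lower at an adjusted p under 0.05, beside 32.5% of all 14777 tested genes called lower and 30.0% called higher. The members' median log2 fold change was -2.23, with a range of -6.03 to -1.62, and the median of all tested genes was -0.02. Nothing is read from that count, since these values may have chosen the genes.

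Among the alpha-tubulins, TUBA4A differed most. Its level was 0.185, 0.264, 0.145, 0.348 and 0.351 TPM in control granules 1 to 5, against 18.3, 13.6, 11.5, 21.2 and 3.23 TPM in control exosomes 1 to 5. Every granule library lay below every exosome library, and the exosome libraries spread over a wide range with replicate 5 lowest. The fitted log2 fold change was -6.03 ± 0.45 (SE). TUBA1B, the main alpha-tubulin of most cells, measured 73.6, 36.3, 49.1, 54.5 and 64.0 TPM in control granules, against 556, 541, 461, 555 and 453 TPM in control exosomes, and its log2 fold change was -3.07 ± 0.13. TUBA1C, the third gene of the chromosome 12 cluster, had 16.6 to 31.3 TPM in control granules and 133 to 188 TPM in control exosomes, with a log2 fold change of -2.67 ± 0.14. TUBA1A, known from developing neurons, had 3.52 to 7.78 TPM in control granules and 21.8 to 34.1 TPM in control exosomes, with a log2 fold change of -2.15 ± 0.11.

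Among the beta-tubulins, the log2 fold changes lay closer together. TUBB measured 55.2, 24.8, 39.8, 33.95 and 51.2 TPM in control granules 1 to 5, against 155, 176, 125, 169 and 162 TPM in control exosomes 1 to 5. The highest granule library was thus below the lowest exosome library, and the log2 fold change was -2.01 ± 0.13. TUBB4B, which is widely made and is also a tubulin of cilia, had 11.3 to 20.04 TPM in control granules and 64.1 to 76.2 TPM in control exosomes, with a log2 fold change of -2.08 ± 0.24. TUBB2A had 1.68 to 2.94 TPM in control granules and 10.4 to 16.3 TPM in control exosomes (log2 fold change -2.12 ± 0.15), and its near copy TUBB2B had 1.89 to 3.64 TPM in control granules and 7.45 to 16.0 TPM in control exosomes (log2 fold change -1.62 ± 0.26). TUBB6 had 2.49 to 3.83 TPM in control granules and 6.12 to 13.2 TPM in control exosomes, with a log2 fold change of -2.32 ± 0.18. TUBB3 had 0.175 to 0.582 TPM in control granules and 1.56 to 4.05 TPM in control exosomes, with a log2 fold change of -2.81 ± 0.30.

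**Figure D2:**
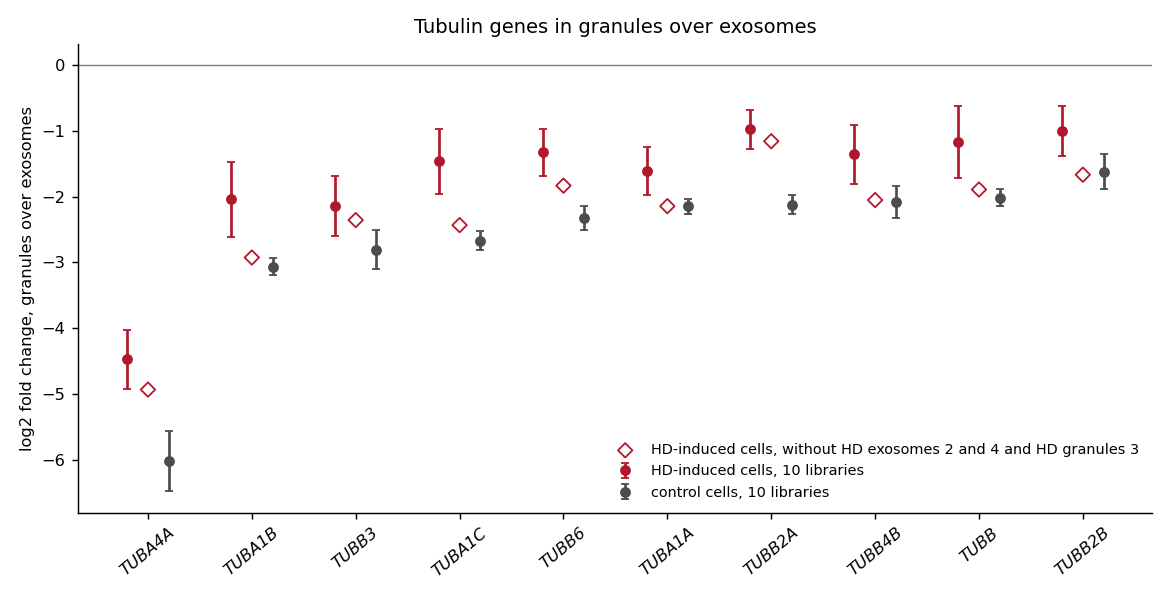
Log2 fold change of granules over exosomes for each tubulin gene, with its standard error, in HD-induced cells with all libraries (red points), in HD-induced cells without HD exosomes 2 and 4 and HD granules 3 (open diamonds), and in control cells (grey points). Every value is below 0, from -6.03 for TUBA4A in control cells to -0.97 for TUBB2A in HD-induced cells.

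Genes that mark other cell types were higher in control exosomes by their medians, and so were genes known from the HEK293 line. The 5 HEK293 genes summed to 4.57 to 10.6 TPM in control granules and 12.9 to 19.0 TPM in control exosomes. The summed level of 6 red blood cell genes was 5.22 to 15.4 TPM in control granules and 13.7 to 66.3 TPM in control exosomes, that of 6 keratinocyte genes 0.111 to 0.465 TPM in control granules and 0.972 to 11.98 TPM in control exosomes, and that of 7 platelet genes 0.346 to 1.14 TPM in control granules and 2.48 to 4.99 TPM in control exosomes. The platelet genes PPBP and GP9 were listed at 0 in all 10 of these libraries, and PF4 and RGS18 in all 5 control granules. The 8 neuronal genes summed to 1.16 to 2.14 TPM in control granules and 2.12 to 5.22 TPM in control exosomes, and the 6 leukocyte genes to 0.0317 to 0.295 TPM in control granules and 0.218 to 0.675 TPM in control exosomes. The ranges of the red blood cell, neuronal and leukocyte genes overlapped between the groups. The part of other cell types in the tubulin result was not tested. Tubulin transcripts also have a higher GC content than most: from 51.5% in TUBA1C to 62.4% in TUBB3, against a median of 49.3% over all tested genes. With a GC offset in the fit, the members' median log2 fold change in control cells was -1.74. All 10 were called lower, beside 36.6% of all tested genes.

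In HD-induced cells the 10 genes were again lower in granules, with smaller estimates and wider errors, and the difference of the estimates was called for no member, as given further on. With all 10 libraries, 7 of 10 were called lower, beside 5.77% of all 14431 tested genes called lower and 11.9% called higher (833 and 1720 genes, or 577 lower and 2459 higher with RLE size factors), and TUBB, TUBA1C and TUBB2B were not called. The median log2 fold change was -1.41 over the members and 0.17 over all tested genes. In CPM, the 2 groups were separate for no member, while with granules lower they were for 0.270% of all tested genes. HD exosomes 4 held 2 tubulin reads, and a gene at 0 reads there cannot be separate with granules lower. Nothing about the members is therefore read from these ranges. TUBA1B measured 51.8, 40.3, 397, 28.2 and 35.5 TPM in HD granules 1 to 5, against 538, 37.0, 626 and 428 TPM in HD exosomes 1, 2, 3 and 5, with a log2 fold change of -2.04 ± 0.57. In TPM, the groups overlapped through HD exosomes 2 alone, which lay below HD granules 1, 2 and 3. TPM counts the unnamed entries, which held most reads of that library, and CPM does not. The overlap in CPM need not come from the same library, since HD exosomes 4, with 1 TUBA1B read, enters it too. TUBA4A measured 0.295, 0.470, 1.28, 0.465 and 0.266 TPM in HD granules 1 to 5, against 13.9, 0.614, 18.9 and 17.7 TPM in HD exosomes 1, 2, 3 and 5, with a log2 fold change of -4.47 ± 0.45. TUBB measured 41.5, 29.5, 254, 22.03 and 30.3 TPM in HD granules 1 to 5, against 183, 16.7, 244 and 153 TPM in HD exosomes 1, 2, 3 and 5, with a log2 fold change of -1.17 ± 0.55.

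Without HD granules 3, 10 of 10 were called lower with a median log2 fold change of -1.95, beside 17.4% of all tested genes. The same count was reached without HD exosomes 2 and 4 and HD granules 3, beside 16.4% of all tested genes. The members' median was -2.10 there. The choice of HD exosomes 2 and 4 and HD granules 3 was made after the data were seen. HD granules 3 was set apart by its tubulin level, which is the value compared here. The counts without it are therefore no support for lower tubulin in granules. Leaving out any single one of HD granules 1, 2, 4 or 5, or HD exosomes 1 or 3, left 3 of 10 called. In those fits 2.9% to 3.5% of all tested genes were called lower, so the member counts changed together with the calls over all genes. The number called in HD-induced cells therefore depends on which libraries are kept, while the sign was negative for all 10 in each of these fits.

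Genes of other cell types differed between the HD groups too, and both the red blood cell and the keratinocyte genes were high in HD exosomes 5. The red blood cell genes summed to 3.91 to 42.6 TPM in HD granules, against 24.4, 31.4, 91.4, 0 and 2785 TPM in HD exosomes 1 to 5. The keratinocyte genes summed to 0.407 to 0.885 TPM in HD granules, against 2.38, 2.77, 34.9, 214.6 and 177.5 TPM in HD exosomes 1 to 5. The platelet genes summed to 0.157 to 4.401 TPM in HD granules and 0 to 13.9 TPM in HD exosomes, with PPBP, PF4 and GP9 listed at 0 in both groups. The neuronal genes summed to 0.937 to 4.51 TPM in HD granules and 0 to 3.93 TPM in HD exosomes, and the leukocyte genes to 0.0607 to 0.570 TPM in HD granules and 0 to 4.805 TPM in HD exosomes. Without HD exosomes 5, 7 of 10 tubulin genes were called lower in HD granules, beside 4.90% of all tested genes. The members' median log2 fold change was -1.55. The 5 HEK293 genes summed to 4.82 to 26.0 TPM in HD granules and 2.31 to 102 TPM in HD exosomes. The part of the other cell types in this result was not tested.

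No tubulin gene was called different between HD-induced and control cells, in either compartment. In granules, 0 of 10 were called by edgeR, beside 0.0% of 16750 tested genes. At an unadjusted p under 0.05 the test marked 215 genes, 2 of them members, and DESeq2 called 4 genes and limma with voom weights 5, none of them members. The log2 fold changes of HD granules over control granules ran from 0.09 for TUBB4B to 0.87 for TUBA4A, all above 0. The positive sign rested partly on HD granules 3: without it, 5 of the 10 were below 0 and the median was -0.03, against 0.27 with it. TUBB2A, at 28.9 ± 5.51 CPM in HD granules and 19.0 ± 0.79 CPM in control granules (SD, n = 5 each), was the only member whose groups did not overlap, beside 0.137% of all tested genes with every HD granule library higher. Its log2 fold change was 0.61 ± 0.16. TUBA4A had a log2 fold change of 0.87 ± 0.37 at levels of 1.58 ± 0.46 CPM in HD granules and 0.866 ± 0.33 CPM in control granules.

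In exosomes, 0 of 10 were called by edgeR, beside 0.0% of 12936 tested genes, where 980 genes and no member had an unadjusted p under 0.05 and DESeq2 and voom called 0 genes. The log2 fold changes of HD exosomes over control exosomes ran from -0.54 for TUBB6 to -0.09 for TUBA1A, with standard errors of 0.23 to 0.43. With a GC offset, 5 of the 10 changed sign, so that no direction can be given. The keratinocyte genes had a median sum of 34.9 TPM in HD exosomes and 4.51 TPM in control exosomes, and the red blood cell genes one of 31.4 TPM in HD exosomes and 27.2 TPM in control exosomes. Their part in these differences was not tested. Without HD exosomes 5, where the red blood cell genes were highest, 0 of 10 were called, beside 0.00757% of all tested genes. The members' median was then -0.22, and TUBA1A and TUBB3 were above 0. The difference of the HD effects, granules minus exosomes, was called for no member, beside 0.0186% of 16154 tested genes, which is 3 genes. At an unadjusted p under 0.05 the test marked 778 genes, and DESeq2 called 16 genes and voom 2, none of them members. Its estimates ran from 0.43 for TUBA1A to 1.44 for TUBA4A, and 3 members had an unadjusted p under 0.05. Without HD exosomes 2 and 4 and HD granules 3 the median of these estimates was 0.14, against 0.80 with them.

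**Figure D3:**
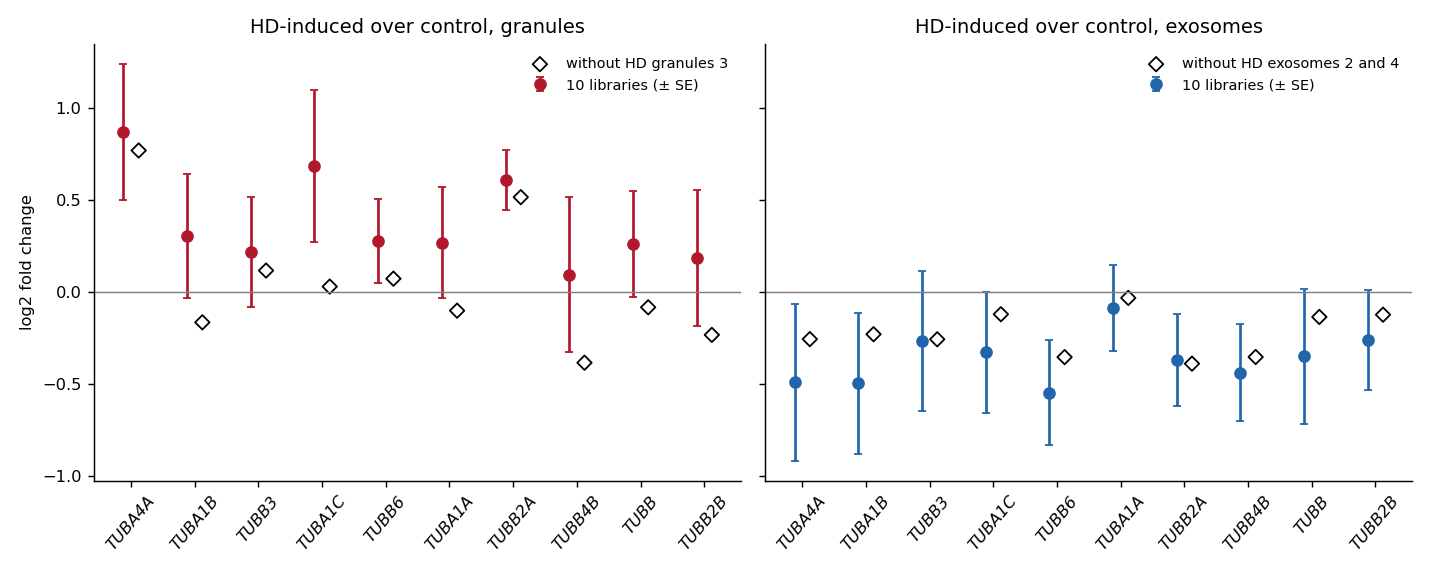
Log2 fold change of HD-induced over control for each tubulin gene in granules (left) and exosomes (right), with standard errors, and the values without the libraries that stand apart (open diamonds). In granules 5 of the 10 genes lie below 0 once HD granules 3 is left out, and in exosomes all values lie between -0.54 and 0.

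The gene sums hide a split by transcript. In control cells, coding transcripts of the tubulin genes were lower in granules, while entries annotated as retained_intron, transcripts that keep an intron and are not expected to encode the protein, were mostly not lower. Of 18 tested coding transcripts of the 10 genes, 14 were called lower and 0 higher, beside 19.1% of 26131 tested coding transcripts called lower and 12.7% called higher. Of 11 tested retained_intron transcripts, 3 were called higher and 1 lower, beside 39.8% of 8201 tested retained_intron transcripts called higher and 2.4% lower. Of the 3 called higher, TUBB2B-204 had no read in control exosomes and passed the count filter only through control granules. The shift of retained_intron transcripts was thus shared by the whole library: their median log2 fold change over all genes was 1.89, against -0.10 for coding transcripts. Over the members the medians were 1.11 for retained_intron and -2.69 for coding transcripts. These 4 medians were the same when entries with no read in a group were set at their bound.

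The splice sites at which 4 of these entries run on into an intron show where a read can tell them from the spliced mRNA. Each sequence has 20 bases of coding exon and 20 of intron, and capitals mark the first 2 bases of the intron. They come from GENCODE release 29.
TUBB4B-202: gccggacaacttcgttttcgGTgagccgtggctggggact
TUBB6-202: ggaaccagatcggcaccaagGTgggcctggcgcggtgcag
TUBA1B-207: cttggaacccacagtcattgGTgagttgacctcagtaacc
TUBA1A-206: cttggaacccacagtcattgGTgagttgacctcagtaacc

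TUBB4B-202 keeps intron 3 of the mRNA, 474 bases on the plus strand at chr9:137242022-137242495, and TUBB6-202 keeps intron 1, 337 bases on the plus strand at chr18:12308350-12308686. TUBA1B-207 keeps intron 2, 109 bases on the minus strand at chr12:49129391-49129499, and TUBA1A-206 keeps intron 2, 152 bases on the minus strand at chr12:49186459-49186610. The last 2 sequences do not differ at any of the 40 bases, so that a read over this site alone cannot be given to TUBA1A or TUBA1B. The kept intron makes up 23.3% of TUBB4B-202, 15.6% of TUBB6-202, 13.0% of TUBA1B-207 and 21.8% of TUBA1A-206, and the remainder of each entry is exon that it can share with the mRNA.

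TUBB4B showed the split between its 2 transcripts. The coding transcript TUBB4B-201 had 877, 1482, 807, 1819 and 635 estimated reads in control granules 1 to 5, against 3704, 2954, 2806, 2253 and 2142 reads in control exosomes 1 to 5, and its log2 fold change was -2.62 ± 0.23. The retained_intron transcript TUBB4B-202 had 425, 616, 304, 513 and 129 reads in control granules, against 17.4, 10.6, 0, 0 and 2.39 reads in control exosomes, and its log2 fold change was 4.99 ± 1.02. The deeper granule libraries thus held fewer reads of the mRNA and more of the intron-keeping entry.

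In TUBB6 the main coding transcript was nearly missing from control granules, and in TUBB2A it was low there. Since 63.7% of the words of TUBB2A-201 also occur in another member, its reads are less certain. TUBB6-201 had 0, 0, 9.21, 0 and 11.8 reads in control granules 1 to 5, against 218, 230, 218, 226 and 199 reads in control exosomes, a log2 fold change of -6.87 ± 1.19. TUBB6-202, which keeps an intron, had 116, 140, 105, 182 and 106 reads in control granules, against 55.6, 47.3, 24.4, 0 and 16.3 reads in control exosomes, and was not called, with a log2 fold change of 1.06 ± 0.81. TUBB2A-201 had 39.5, 58.8, 34.5, 77.4 and 0 reads in control granules, against 695, 611, 561, 478 and 347 reads in control exosomes, a log2 fold change of -5.02 ± 0.80. The gene sums of TUBB6 and TUBB2A, at log2 fold changes of -2.32 and -2.12, therefore differed much less than their coding transcripts. TUBB2A-206, a retained_intron entry, had 128 to 337 reads in control granules and 0 to 53.2 reads in control exosomes, and with a log2 fold change of 2.80 ± 1.29 it was not called.

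TUBB2B-204, the retained_intron entry with the highest fitted value, had 42, 50.4, 49.3, 44.3 and 71.5 reads in control granules and 0 reads in all 5 control exosomes. Against a floor of 3 counts over the 5 exosome libraries, it was at least 37.9-fold higher in granules. Since it passed the count filter only through its granule reads, this bound is a description and no support for a rise. TUBA1B-207 had 62.9, 69.9, 83.03, 155 and 70.9 reads in control granules, against 4.43, 5.86, 1.27, 2.75 and 0 reads in control exosomes, a log2 fold change of 3.69 ± 0.73, whereas the mRNA TUBA1B-202 was lower, at -3.12 ± 0.15. TUBA1C-203 went the other way and was the single retained_intron entry called lower, at -4.27 ± 0.29, with 50.7 to 163 reads in control granules and 582 to 1213 reads in control exosomes. TUBA1A-206 was rare, with 4.33 to 18.7 reads in control granules and 0 reads in all 5 control exosomes. For TUBA4A, the coding transcript TUBA4A-201 had 0 reads in control granules 1, 2 and 4, and 1.97 and 8.32 reads in replicates 3 and 5, against 106 to 548 reads in control exosomes. For TUBB, whose reads lay almost wholly on TUBB-205, the transcript's log2 fold change of -2.12 ± 0.11 was close to that of the gene.

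**Figure D4:**
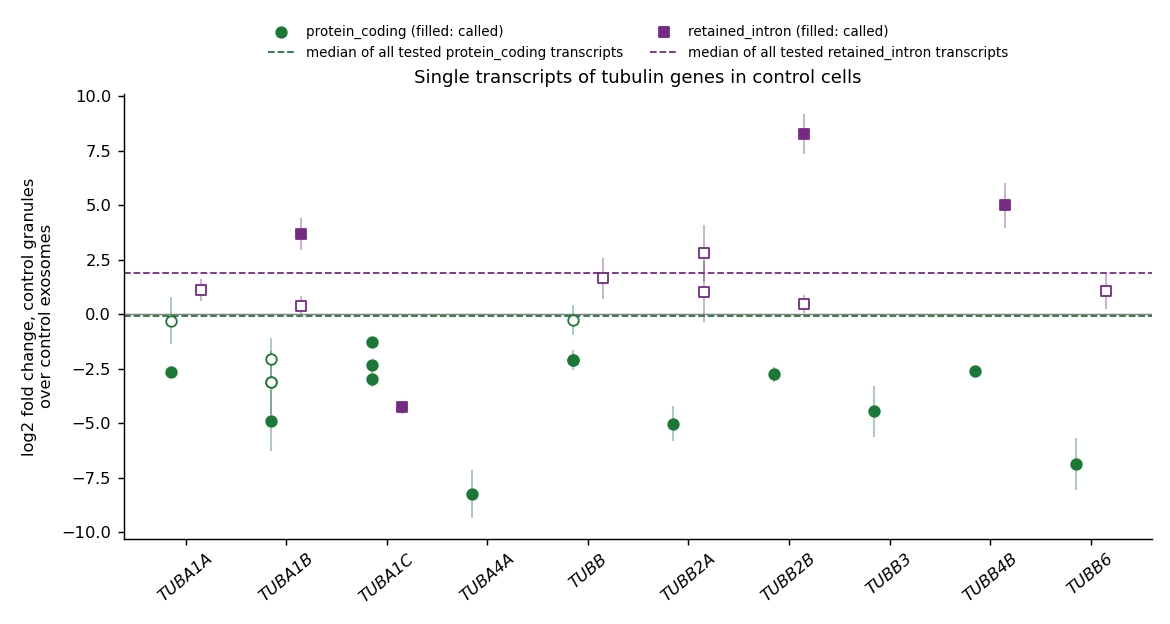
Log2 fold change of control granules over control exosomes for each tested transcript of the 10 tubulin genes, with standard errors, for coding transcripts (green circles) and retained_intron transcripts (purple squares). Filled symbols were called, and dashed lines give the median of all tested transcripts of each class, -0.10 for coding and 1.89 for retained_intron ones. The retained_intron entry below 0 belongs to TUBA1C.

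As a share of a gene's reads, retained_intron entries took more in every control granule library than in any control exosome library for 8 of the 9 genes with at least 50 reads in 2 or more libraries of both groups. By the same rule this was so for 44.2% of 6631 coding genes that have a retained_intron entry. In TUBB6 the share was 95.0%, 93.7%, 82.1%, 89.7% and 81.8% in control granules 1 to 5, against 8.86%, 10.9%, 7.68%, 0% and 7.32% in control exosomes 1 to 5. In TUBB2A it was 69.8% to 90.6% in control granules and 3.03% to 8.03% in control exosomes, and in TUBB2B 54.03% to 64.3% in control granules and 6.33% to 21.98% in control exosomes. In these 3 genes most reads in granules thus lay on intron-keeping entries, and few did in exosomes. The shares were smaller in the abundant genes. They were 16.9% to 32.7% for TUBB4B in control granules and 0% to 0.468% in control exosomes, 19.9% to 30.6% for TUBA1A in control granules and 0.879% to 15.6% in control exosomes, 5.12% to 19.5% for TUBA1B in control granules and 0.474% to 0.915% in control exosomes, and 1.18% to 2.29% for TUBB in control granules and 0.288% to 0.734% in control exosomes. TUBB3 reached 50 reads in only 2 control granules, with 25.6% and 43.8%, and had 0.546% to 9.41% in control exosomes. TUBA1C was the exception, with 5.83% to 11.7% in control granules and 24.1% to 29.4% in control exosomes. Its share rests on TUBA1C-203 alone, most of whose words also occur in other members. TUBA4A had too few reads in control granules for a share. Over all genes with a coding transcript, retained_intron entries took 7.71% to 9.17% of the reads in control granules and 3.28% to 3.69% in control exosomes.

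**Figure D5:**
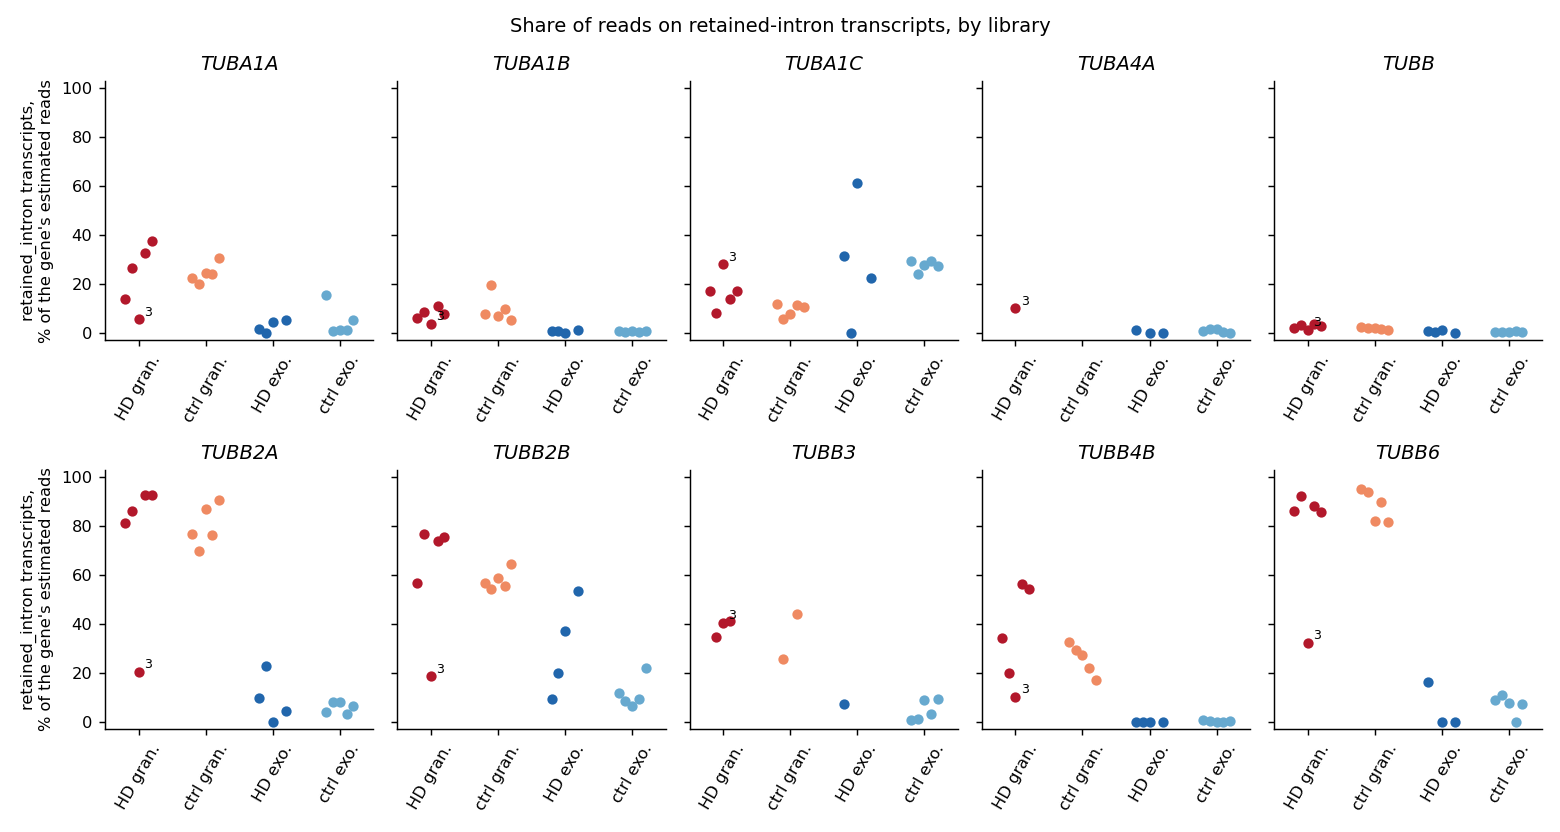
Percent of a gene's estimated reads on retained_intron entries, by library, for each tubulin gene and group, in libraries with at least 50 reads on the gene. HD granules 3 is numbered. In TUBB6 the control granules lie at 81.8% to 95.0% and the control exosomes at 0% to 10.9%.

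The shares in HD granules overlapped those in control granules for all 9 genes with at least 50 reads in libraries of both groups. For TUBB4B the share was 34.3%, 19.9%, 10.1%, 56.1% and 54.2% in HD granules 1 to 5, against 16.9% to 32.7% in control granules. For TUBA1C it was 17.2%, 8.11%, 28.0%, 13.7% and 17.3% in HD granules 1 to 5, against 5.83% to 11.7% in control granules. HD granules 3 was thus the lowest of the 5 for TUBB4B and the highest for TUBA1C. For TUBB6 the share on retained_intron entries was 85.9%, 92.1%, 32.2%, 88.2% and 85.7% in HD granules 1 to 5, against 16.0%, 0% and 0% in HD exosomes 1, 3 and 5. For TUBB2A it was 81.4%, 86.0%, 20.3%, 92.7% and 92.7% in HD granules, against 9.84%, 22.7%, 0% and 4.30% in HD exosomes 1, 2, 3 and 5. TUBB4B-202 had 602, 325, 546, 588 and 562 reads in HD granules 1 to 5 and 0 reads in all 5 HD exosomes. Against a floor of 3 counts over the group, TUBB4B-202 was at least 108-fold higher in HD granules, or at least 92.4-fold higher without HD exosomes 2 and 4 and HD granules 3. In HD-induced cells it passed the count filter only through HD granules, so these bounds are descriptions and no support for a rise. In HD granules 3 the coding transcript TUBB4B-201 had 4861 reads, against 461 to 1305 reads in the other HD granules, while TUBB4B-202 was within their range, so that the low share in this library came with more reads of the mRNA and not with fewer of the intron-keeping entry. Between HD granules and control granules, no transcript of the 10 genes was called, beside 0.0% of 57417 tested transcripts. Of the members, 1 coding and 1 retained_intron transcript had an unadjusted p under 0.05 in edgeR's test, the only tool run on single transcripts. Over all genes this was so for 328 of 30904 coding and 98 of 12891 retained_intron transcripts.

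The counts for the gene lists that follow stand beside the 32.5% of all tested genes called lower and the 30.0% called higher in control granules, and a count near these shares is no result about a list. Of 12 other tubulin genes, 7 passed the filter on low counts in control cells, and in the edgeR test 5 fell and 1 rose in control granules, with a median log2 fold change of -1.21. TUBG1, the gamma-tubulin that nucleates microtubules at the centrosome, fell to 22.5 ± 3.53 CPM in control granules, against 162 ± 23.6 CPM in control exosomes (SD, n = 5 each; log2 fold change -2.84, adjusted p = 6.44e-08). TUBG2, its paralog, fell by 1.21 on the log2 scale (adjusted p = 7.23e-04). TUBB1, a platelet beta-tubulin, fell by 3.50 (adjusted p = 5.17e-05) at a median of 0.0760 TPM in control granules and 0.908 TPM in control exosomes, and TUBB4A, a beta-tubulin of neurons and glia, fell by 3.01 (adjusted p = 1.50e-05). TUBD1, the delta-tubulin of centrioles, fell by 0.43 (adjusted p = 0.0433) with groups that overlapped. TUBE1, the epsilon-tubulin of centrioles, rose instead, to 39.0 ± 10.03 CPM in control granules, against 17.8 ± 4.34 CPM in control exosomes (log2 fold change 1.13, adjusted p = 7.66e-04). TUBA8 had a log2 fold change of -0.42 (adjusted p = 0.640). The other 5, TUBA3C, TUBA3D, TUBA3E, TUBAL3 and TUBB8, were too low to be tested and did not exceed 0.701 TPM in any library. In HD-induced cells 2 of 7 fell, TUBG1 by 1.63 (adjusted p = 0.0208) and TUBB1 by 2.70 (adjusted p = 0.00790), and 5 did not pass the test. There 5.77% of all tested genes were called lower and 11.9% higher. The values of the lists in HD-induced cells come from the fit with all libraries, whose number of calls depends on which libraries are kept.

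The mRNAs of the tubulin folding machinery did not move as a block. Of 8 subunits of the CCT chaperonin, which closes the fold of tubulin and actin, 6 fell and 0 rose in control granules (median log2 fold change -0.999 over the list). CCT7 fell by 2.32 (adjusted p = 3.03e-08), CCT5 by 1.27 (adjusted p = 8.06e-06), CCT3 by 1.20 (adjusted p = 2.03e-05) and TCP1 by 1.20 (adjusted p = 1.47e-04). Of 6 prefoldin subunits, which hand nascent chains to the chaperonin, 2 rose and 1 fell. PFDN4 rose to 168 ± 30.6 CPM in control granules, against 24.9 ± 9.23 CPM in control exosomes (log2 fold change 2.75, adjusted p = 2.79e-06), PFDN5 rose by 1.22 (adjusted p = 3.02e-04), and PFDN1 fell by 1.26 (adjusted p = 2.71e-04). PFDN2 had a log2 fold change of 0.58 (adjusted p = 0.0648).

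Of 7 tubulin cofactors, 2 rose and 3 fell in control granules. TBCA, which captures beta-tubulin, rose to 289 ± 95.7 CPM in control granules, against 53.1 ± 16.0 CPM in control exosomes (log2 fold change 2.45, adjusted p = 1.18e-05), and the cofactor E-like gene TBCEL rose by 0.59 (adjusted p = 0.00119). TBCB, which binds alpha-tubulin, fell by 1.87 (adjusted p = 4.52e-06), and TBCC, which completes dimer assembly, fell by 1.73 (adjusted p = 9.43e-07). In HD-induced cells TBCA rose by 3.16 (adjusted p = 0.00790), PFDN4 rose by 3.28 (adjusted p = 0.0132), TBCB fell by 1.43 (adjusted p = 0.0236), CCT7 fell by 1.68 (adjusted p = 0.0116) and CCT5 fell by 1.26 (adjusted p = 0.0307).

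The 5 genes of tubulin autoregulation split as well. TTC5, the reader of the nascent chain, had 63.6 ± 5.57 CPM in control granules and 67.3 ± 6.67 CPM in control exosomes, with a log2 fold change of -0.08 (adjusted p = 0.538). SCAPER, which links it to the deadenylase, rose to 83.6 ± 16.4 CPM in control granules, against 23.6 ± 5.59 CPM in control exosomes (log2 fold change 1.82, adjusted p = 7.17e-06), and it also rose in HD granules over HD exosomes, by 1.58 (adjusted p = 0.0120). CNOT11, the subunit that docks SCAPER, fell by 1.34 (adjusted p = 3.22e-06), and CNOT7, a catalytic subunit of the complex, fell by 0.89 (adjusted p = 6.15e-06) in control granules.

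Of 18 tested enzymes that modify tubulin, 9 fell and 4 rose in control granules (median -0.68). TTLL11, a polyglutamylase, fell by 2.97 (adjusted p = 1.81e-06), VASH1, which removes the last tyrosine of alpha-tubulin, fell by 2.86 (adjusted p = 5.93e-06), SIRT2, a deacetylase, fell by 2.46 (adjusted p = 2.21e-06) and AGBL5, a deglutamylase, fell by 2.33 (adjusted p = 1.26e-07). Of 21 genes of the gamma-tubulin complex and nucleation, 7 rose and 5 fell. AKAP9, a scaffold for nucleation at the Golgi, rose by 1.98 (adjusted p = 2.65e-06), while the ring complex genes TUBGCP2 and TUBGCP4 fell by 1.74 (adjusted p = 3.21e-06) and 0.76 (adjusted p = 9.83e-05), and HAUS7, an augmin subunit, fell by 1.74 (adjusted p = 1.17e-05).

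Of 29 tested microtubule-associated and severing proteins, 13 fell and 7 rose in control granules. MAPRE2, an end-binding protein, fell by 2.17 (adjusted p = 1.39e-07), MAP2, a dendritic protein, fell by 2.60 (adjusted p = 8.68e-05), DPYSL2, which binds tubulin dimers, fell by 1.58 (adjusted p = 6.87e-06), and the severing enzyme SPAST rose by 0.82 (adjusted p = 1.34e-05). Of 32 motor genes, 11 fell and 10 rose. KIF1C, a kinesin that carries cargo along microtubules, fell to 54.8 ± 16.0 CPM in control granules, against 2603 ± 820 CPM in control exosomes (log2 fold change -5.57, adjusted p = 7.24e-08), and DYNC2H1, the dynein heavy chain of cilia, rose by 1.49 (adjusted p = 3.36e-06). DYNC1LI2 and DCTN2, of cytoplasmic dynein and its activator dynactin, fell by 1.27 (adjusted p = 1.21e-06) and 1.26 (adjusted p = 1.77e-06). In none of the 9 lists was a gene called between HD-induced and control cells in edgeR's test, in either compartment.

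Across the 19 libraries with at least 1000000 estimated reads, the 5 protein-coding genes whose log2(TPM + 1) was most like that of the summed tubulin level were PRDX2, AKR1B1, PPP2R1A, PSMD3 and UQCRC1, out of 3318 with a mean of at least 10 TPM. Pearson's r ran from 0.994 to 0.996. The points share library, depth and compartment, and no p is given. Of 51 annotated tubulin pseudogenes, 1 had at least 10 reads in every library of a control group, and pseudogenes took at most 0.656% of the tubulin reads in any of these 19 libraries.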

How the data were processed

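Total RNA of 20 HEK293 libraries was prepared with a stranded kit and sequenced in read pairs, per the labels' protocols. Reads were trimmed and quantified with Trimmomatic, cutadapt, FastQC and Salmon against GRCh38.p14, per the submitters' processing notes, which give no versions here. The authors deposited, as Salmon's output, an estimated count (an expected count, not whole) and a TPM value for each transcript. Entries without a gene name were left out of library sizes and tests: named entries held 40.8% to 75.1% of the reads in control libraries and 13.4% to 72.6% in HD libraries. The members and lists were chosen with earlier results of these data known.

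Counts of the named transcripts were summed by gene, rounded to whole numbers, filtered by edgeR's filterByExpr, scaled by TMM and tested with edgeR 4.0.16's quasi-likelihood test in R 4.3.3 over all genes, with Benjamini-Hochberg adjustment and a threshold of 0.05. Each comparison was fitted on its own groups, and the difference of HD effects on all groups. Transcripts were tested the same way. CPM values use the scaled library sizes. Alternatives used DESeq2 1.42.0, limma 3.58.1 on voom weights or on log2(TPM + 1), RLE or upper-quartile factors, no filter, coding transcripts only, a GC offset, a replicate block, and libraries left out. Genes named outside the 10 were all other tubulins, and from each list up to 4 with the smallest p in control cells and up to 2 in each other comparison.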

Additional observations from a re-analysis of the deposited data

Results flagged for a closer look

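In HD granules, replicate 3 stood far from the other 4 libraries for all 10 tubulin genes, measured as its gap to the nearest library over the range of the group. TUBA1B was at 397.2 TPM in replicate 3, against 28.24 to 51.8 TPM in the others, and TUBB at 254.1 TPM, against 22.03 to 41.49 TPM. TUBA1C was at 210.3 TPM, against 16.72 to 28.14 TPM, and TUBB4B at 105.8 TPM, against 5.969 to 15.3 TPM. TUBA1A was at 35.38 TPM, TUBB2B at 21.4 TPM, TUBB2A at 16.41 TPM, TUBB6 at 10.15 TPM, TUBB3 at 1.767 TPM and TUBA4A at 1.278 TPM, each the highest of the 5 libraries. The share of reads on retained_intron entries was lowest in the same library, at 20.35% for TUBB2A, against 81.41% to 92.71% in the others, and at 32.15% for TUBB6, against 85.69% to 92.1%. These are 12 flags among 73 groups examined, and all 12 belong to this library. The rate of about 1 in 20 holds for separate groups, and these share their libraries, so the flags are not independent. Genes outside tubulin also shifted in HD granules 3. The 5 HEK293 genes summed to 26.0 TPM there, against 4.82 to 6.35 TPM in the other HD granules. The red blood cell genes were lowest there, at 3.91 TPM, and the keratinocyte genes lay within the range of the others.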

How the results depend on the processing

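In control cells all 10 tubulin genes stayed called lower under every alternative run. Over all tested genes, 12.9% to 37.6% were called lower in these runs. In HD-induced cells 7 were called, against 4 with DESeq2, 0 with limma on log2(TPM + 1) and 3 to 10 with a library left out. Over all genes, 2553 were called there, against 6029 with voom, 4244 without a filter, 4186 with a GC offset, 110 with limma on log2(TPM + 1), 1240 without HD granules 5, 5346 without HD granules 3 and 5758 without HD exosomes 2 and 4 and HD granules 3. Between HD-induced and control exosomes no gene was called, against 275 without a filter, 2 with limma and up to 497 with a library left out, and for the difference of HD effects 3 genes, against 16 with DESeq2, 0 with coding transcripts only and 1 to 28 with a library left out. Retained_intron transcripts of the members called higher in control granules numbered 3 to 5, and coding ones called lower 14 to 15, with a library left out. The cause was not tested. RLE factors moved the median of all genes in control cells to 0.09, against -0.02. Of 1060 alternative log2 fold changes of single members, 1016 stayed within the spread of the main value and 44 moved further. For members called in the main fit, 0 changed sign. Whether a member stayed called is not part of this count. Whether the shared replicate numbers pair the libraries could not be settled. Replicate 5 deviated most like its own number in each comparison of 2 groups (r of 0.35, 0.35, 0.38 and 0.61). Replicates 2, 3 and 4 did so in none. The main fits treat the libraries as unpaired. With a replicate block, 10 members were called in control cells, 9 in HD-induced cells and 0 in the other comparisons, and over all genes 4006 in HD-induced cells, 296 between exosomes and 1 for the difference. Upper-quartile factors were not run for the 3 comparisons with HD exosomes, since the upper quartile of HD exosomes 4 is 0. The floor of 3 counts covers counting error only, and HD exosomes 4, with 1074 reads, limits every HD exosome value.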
